A study of Homo sapiens with 28 samples.

Results

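8226/S is 1 of 4 human multiple myeloma cell lines profiled here, and its expression program was taken as the autosomal genes whose level in 8226/S lay apart from U266, from MM.1s and from KMS11. The arrays of 8226/S were found by their titles, 7 of 28 arrays in all, and the other 21 are 7 arrays each of U266, MM.1s and KMS11. Myeloma is a cancer of plasma cells, and each line is a permanent culture grown from the tumour of 1 patient. Each line has 1 array in each of 7 conditions: 2 untreated controls numbered 1 and 2, darinaparsin (DAR, an organic arsenical) for 6 and 24 h, and arsenic trioxide (ATO, the inorganic drug) for 6, 24 and 48 h. The 4 lines received ATO at the same 2 µM, whereas DAR was given at 2 µM to 8226/S, 4 µM to U266 and 3 µM to MM.1s and KMS11. Line was compared with line inside each condition, so treatment itself is shared except for the DAR dose. The conditions stand in for replicates of a line, and nothing in the labels says that they came from separate cultures, so p-values measure the spread between these arrays and not between myelomas.

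A myeloma cell keeps the plasma cell's factory for antibodies and depends on signals from the bone marrow, many of which end in the transcription factor family NF-kB. Lines differ by their founding chromosome translocation, and one class of translocation places the transcription factor gene MAF under an antibody gene enhancer. MAF then drives cyclin D2, the integrin subunit gene ITGB7 and chemokine receptor genes. The adaptor TRAF3 holds back the alternative branch of NF-kB by promoting destruction of the kinase NIK.

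Signals below are the deposited Affymetrix values, which have no unit and are comparable between lines for 1 gene but not between genes. Where 3 signals are given for a group they are the lowest, the median and the highest. A difference is on the scale of log2 of the signal plus 29, is followed by its standard error (SE) and is 8226/S minus the nearest of the 3 lines unless another line is named. This scale understates differences of dim genes. A gene is called higher or lower here when limma put 8226/S on the same side of each of the 3 lines, with the 3 adjusted p each under 0.05 and the nearest line at least 1 log2 unit away. The largest of the 3 adjusted p is the one given.

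MAF, the marker of this line, had signals of 5087, 10886 and 14509.9 on the 8226/S arrays, against 64.5, 3435 and 20068 on the others. On the 8226/S arrays the values were 14033 in Control 1, 14172 and 14509.9 after 6 and 24 h of DAR, 10886 in Control 2, and 5087, 6151 and 7379.6 after 6, 24 and 48 h of ATO. Its differences were 5.44 from U266, -0.36 from MM.1s and 1.34 from KMS11 (SE 0.29), which limma called against U266 (adjusted p = 1.43e-14) and KMS11 (adjusted p = 0.000382) but not MM.1s (adjusted p = 0.331). MAF thus marked 8226/S as a high-MAF line beside MM.1s and did not set it apart from all lines. Median signals of CCND2, the cyclin D2 gene, were 13644 in 8226/S against 8587 in U266, 16179 in MM.1s and 10927 in KMS11. ITGB7, which pairs with the alpha 4 integrin, stood at 15060.4 in 8226/S against 2328 in U266, 32819 in MM.1s and 14661 in KMS11.

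Of 6 genes known as MAF targets in myeloma 1 was called higher, the fractalkine receptor gene CX3CR1, against 3.52% of all 14856 genes tested. Its signals were 9859.7, 11509 and 24359.9 on the 8226/S arrays, against 3.43, 73.9 and 1059 on the others. Every 8226/S array lay above every other array, at a difference of 5.29 ± 0.42 from the nearest line (adjusted p = 6.89e-11). The chemokine receptor gene CCR1 stood at 6073 in 8226/S against 1835 in U266, 10276 in MM.1s and 1015 in KMS11, the kinase gene NUAK1 at 470.2 in 8226/S against 74.6 in U266, 2189 in MM.1s and 302 in KMS11, and DEPTOR, an inhibitor of mTOR, at 4192 in 8226/S against 1809.7 in U266, 12556 in MM.1s and 3887 in KMS11. These were highest in MM.1s and not in 8226/S.

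None of the 11 genes tested from the MAF family and the myeloma translocations was called, against 3.52% higher and 2.96% lower of all genes. CCND1 was at a median of 385 in 8226/S against 4685 in U266, 296 in MM.1s and 320.4 in KMS11, the high level lying in U266. FGFR3 was at 106 in 8226/S against 89.3 in U266, 84.7 in MM.1s and 1968 in KMS11. NSD2, also on chromosome 4, was at 1606 in 8226/S against 1178 in U266, 1189 in MM.1s and 4419.8 in KMS11. FGFR3 and NSD2 were both highest in KMS11. MYC, the growth-driving transcription factor gene, had a median of 17107 in 8226/S against 299 in U266, 12777 in MM.1s and 4221 in KMS11, while its relative MYCL had 368 in 8226/S against 4258 in U266, 209 in MM.1s and 123 in KMS11. U266 had the lowest MYC and the highest MYCL. MAFF, a small MAF protein gene, was at 542 in 8226/S against 1184 in U266, 1119 in MM.1s and 381 in KMS11. MAFG, of the same kind, was at 1677 in 8226/S against 2175 in U266, 2204 in MM.1s and 2511 in KMS11. The cyclin D3 gene CCND3 was at 1464 in 8226/S against 450.1 in U266, 1259 in MM.1s and 1004 in KMS11. MYEOV was at 152 in 8226/S against 157 in U266, 326 in MM.1s and 265 in KMS11. None of these 4 set 8226/S apart by the required 1 log2 unit.

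Over all genes 523 were higher in 8226/S than in each other line and 440 were lower (2.96% of the genes tested). The same rule gave 656 higher (4.42%) and 498 lower (3.35%) genes for U266. It gave 292 (1.97%) and 154 (1.04%) for MM.1s, and 179 (1.2%) and 181 (1.22%) for KMS11. Within each of the 7 conditions 8226/S lay above every line in 455 of the 523 and below every line in 388 of the 440, against 7.59% and 6.29% of all genes. Among the 523 the median difference from the nearest line was 1.56, and 62 genes were at least 3 log2 units away. Among the 440 it was 1.46 in size, with 40 genes that far. In 294 of the 523 and 244 of the 440 no 8226/S array overlapped any of the other 21, which held for 2.61% of all genes above and 2.3% below. The counts within conditions and without overlap follow largely from the rule for a call, which rests on the same arrays. Of the 523, 139 would not have passed the filter on low signals without the 8226/S arrays, nor would 432 of the 13893 genes not called, and in 64 of the 523 no other array was above its median. Above the array median on all 28 arrays were 167 of the 440 and 104 of the 523. Against the mean of the 3 lines, 3949 genes were higher (26.6%) and 3834 lower (25.8%), 52.4% in all. By line, 54.1% of genes differed from U266 (27% higher, 27.1% lower), 48.4% from MM.1s (24.2% each way) and 48.5% from KMS11 (25% higher, 23.5% lower), and the median size of the difference was 0.472, 0.407 and 0.411.

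The gene furthest above the other lines was MAL. MAL, which encodes a membrane protein of lipid rafts, had signals of 7646, 10784 and 14205 on the 8226/S arrays, against 16.9, 91.4 and 188 on the others. CD8B, which encodes the beta chain of the CD8 co-receptor of T cells, had 8093, 12942 and 14872 on the 8226/S arrays, against 13.1, 76.1 and 391.9 on the others. KISS1R, the kisspeptin receptor gene, had 5244, 7029 and 10999 on the 8226/S arrays, against 7.88, 72.9 and 139 on the others. For these 3 genes no 8226/S array came near another line, and the nearest line was 6.47 ± 0.31, 6.28 ± 0.29 and 6.09 ± 0.21 away (adjusted p = 2.24e-15, 8.71e-16 and 3.91e-18). KISS1R would not have passed the filter on low signals without the 8226/S arrays. The partner gene CD8A was not called, with 296 in 8226/S against 264 in U266, 48.6 in MM.1s and 260.5 in KMS11. Of 10 T and NK cell markers tested none was called, against 3.52% higher and 2.96% lower of all genes. At those shares a list this short would hold few calls in any case. The summed signal of 8 such markers was 471 to 919 in 8226/S. It was 440.0 to 1139 in U266, 362 to 839.6 in MM.1s and 845 to 1713 in KMS11. No marker was at 0 on any array, and the part of such cells in these results was not tested.

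**Figure D1:**
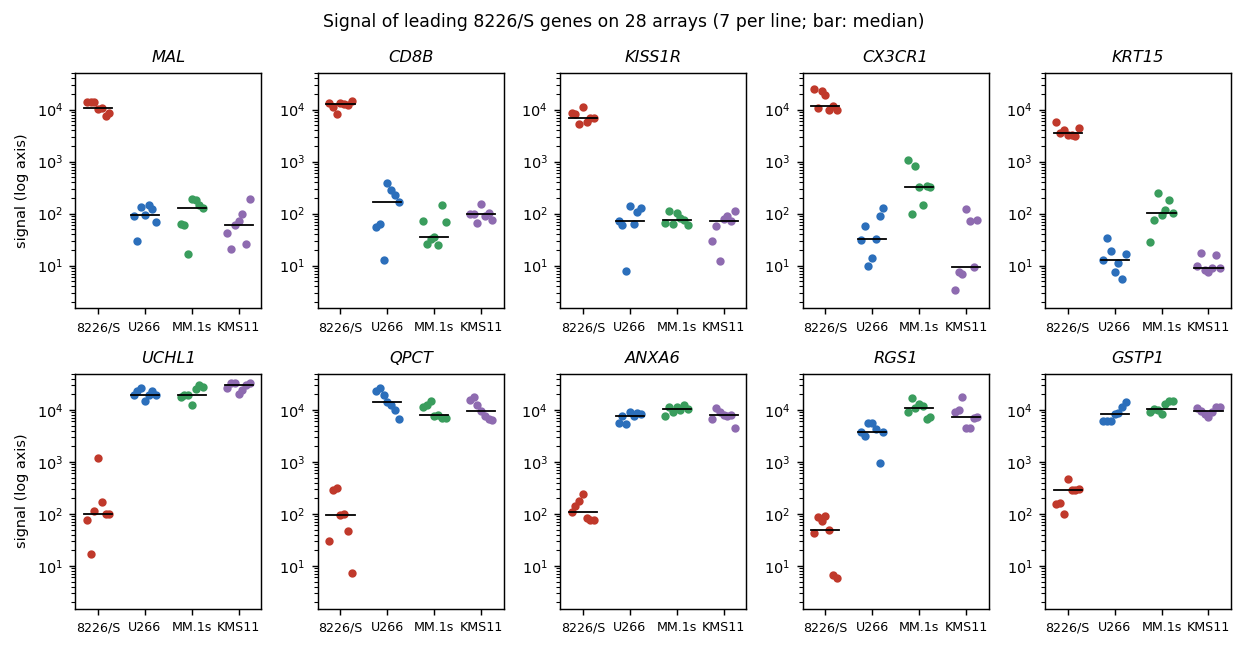
Signal (log axis, no unit) of 5 of the genes furthest above and 5 of those furthest below the other lines, 1 point per array in the order Control 1, DAR 6 and 24 h, Control 2, ATO 6, 24 and 48 h, with the median of 7 arrays as a bar. The 8226/S points lie apart from the 21 others in each panel. KISS1R and KRT15 would not have passed the filter on low signals without the 8226/S arrays.

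Further leading genes were the ubiquitin ligase gene RNF182 (5.73 ± 0.28), the calcium-binding membrane protein gene MCTP1 (5.19 ± 0.30), NPDC1 (5.18 ± 0.22) and the solute carrier gene SLC43A3 (4.52 ± 0.26). PHLDA2, an imprinted growth-restraining gene of the placenta, had 3052, 3627 and 9945 on the 8226/S arrays, against 2.96, 57.7 and 465 on the others. NPW, which encodes neuropeptide W, differed by 4.44 ± 0.24 and the transcription factor gene SOX8 by 4.44 ± 0.19, with signals in the other lines of at most 11.3 and 10.0, which lie at the bottom of the scale. MRC1, the macrophage mannose receptor gene, differed by 4.34 ± 0.27. None of 7 myeloid markers tested was called, against 3.52% higher and 2.96% lower of all genes, shares at which so short a list holds few calls. RNF182, MCTP1, NPDC1, NPW, SOX8 and MRC1 would not have passed the filter on low signals without the 8226/S arrays. The trypsinogen pseudogene PRSS3P2 (4.60 ± 0.32) led with PRSS2 (4.26 ± 0.22) and PRSS3 (4.23 ± 0.24). These 3 share much of their sequence, so their probe sets may read one another, and PRSS2 and PRSS3 were added after their values were seen.

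The genes furthest below the other lines were UCHL1, QPCT and UBE2QL1. UCHL1, which encodes a deubiquitinase abundant in neurons, had signals of 16.9, 101 and 1165 on the 8226/S arrays, against 12648, 23477 and 33144 on the others. The 8226/S values were 75.7 in Control 1, 16.9 and 115 after 6 and 24 h of DAR, 1165 in Control 2, and 169, 99.7 and 101 after 6, 24 and 48 h of ATO. The untreated array Control 2 was the highest of them and still lay far below every array of the other lines. QPCT, which encodes glutaminyl cyclase, had 7.23, 95.3 and 312 on the 8226/S arrays, against 6414, 11159.9 and 25847 on the others. Differences were -6.99 ± 0.38 for UCHL1 (adjusted p = 4.21e-14), -6.34 ± 0.23 for QPCT (adjusted p = 1.37e-17) and -5.75 ± 0.20 for the ubiquitin-conjugating enzyme gene UBE2QL1.

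Next in this direction were ANXA6 and RGS1. ANXA6, which encodes the membrane-binding annexin A6, had 75.2, 111 and 246 on the 8226/S arrays, against 4521, 8486 and 12546 on the others. RGS1, a brake on chemokine receptor signalling in B cells, had 5.82, 49.1 and 89.7 on the 8226/S arrays, against 966, 6932 and 17743 on the others. Both lay below the other lines on every array, by -5.62 ± 0.17 and -5.59 ± 0.26. The RAS exchange factor gene RASGRP3 differed by -4.69 ± 0.25, although its 1 other probe set did not lie on the same side of every line. Lower values were also called for the kinase gene SGK1 (-4.47 ± 0.26), PPP1R16B (-4.59 ± 0.18), the chaperone gene CLGN (-4.61 ± 0.36), CCDC69 (-4.45 ± 0.18), the Golgi mannosidase gene MAN1C1 (-4.15 ± 0.29) and the cytochrome b5 gene CYB5A (-4.14 ± 0.28).

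In the NF-kB pathway 5 of 21 genes tested were lower in 8226/S and 1 was higher, against 2.96% and 3.52% of all genes, and the median difference from the mean of the lines was -0.52 against 0.03 over all genes. The lower 5 were TRAF3, TNFAIP3, RELB, NFKB2 and NFKBIZ. TRAF3 was near the bottom of the scale in 8226/S, with 17.6 in Control 1, 9.08 and 24.9 after 6 and 24 h of DAR, 22.7 in Control 2, and 31.9, 34.0 and 26.0 after 6, 24 and 48 h of ATO. Its signals over the groups were 9.08, 24.9 and 34.0 on the 8226/S arrays, against 511, 873 and 1866 on the others. The lowest array of another line was thus far above the highest 8226/S array, and the difference was -3.82 ± 0.15 from the nearest line (adjusted p = 4.11e-17). Its 1 other probe set lay on the same side of each line.

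TNFAIP3, the feedback inhibitor A20, had 337, 585 and 862 on the 8226/S arrays, against 2473, 5356 and 12557 on the others. RELB and NFKB2 encode the DNA-binding partners of the alternative branch. RELB had 146, 244 and 481 on the 8226/S arrays, against 506, 1167 and 1975 on the others, and NFKB2 had 254, 552 and 802 on the 8226/S arrays, against 698, 2369.9 and 4586 on the others. TNFAIP3 and RELB did not overlap between 8226/S and the others, NFKB2 did, and the differences were -2.60 ± 0.12, -1.89 ± 0.20 and -1.80 ± 0.22. NFKB1 of the classical branch was not called, with 1629 in 8226/S against 1259 in U266, 2582 in MM.1s and 1685 in KMS11. The higher member was CD83, a surface protein of activated B cells and dendritic cells (1184, 1611 and 3120.0 on the 8226/S arrays, against 48.5, 233 and 492 on the others).

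Of 22 plasma cell identity genes 4 were lower and 2 higher, against 2.96% and 3.52% of all genes, and 16 were not called. SLAMF7, a surface receptor of plasma cells and the target of the antibody elotuzumab, had 26.2, 57.6 and 281 on the 8226/S arrays, against 989, 4088 and 25122 on the others. The 8226/S values were 30.6 in Control 1, 281 and 152 after 6 and 24 h of DAR, 102 in Control 2, and 57.6, 46.3 and 26.2 after 6, 24 and 48 h of ATO. Every one was below the lowest array of another line, and the difference was -4.55 ± 0.23 (adjusted p = 1.41e-14), among the 15 largest differences in this direction. Its relative LY9 had 58.3, 89.8 and 260.2 on the 8226/S arrays, against 1369, 2075 and 4161 on the others and also did not overlap. TNFRSF17, the BCMA receptor targeted by cell therapies, had 469, 1454 and 2794 on the 8226/S arrays, against 1395, 12934 and 26134 on the others, and its difference was -2.18 ± 0.17 (adjusted p = 5.18e-11). Within each of the 7 conditions 8226/S had the lowest TNFRSF17 value of the 4 lines, although its highest value, in Control 1, lay above the lowest of the others. ELL2, an elongation factor of antibody secretion, was the fourth.

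**Figure D2:**
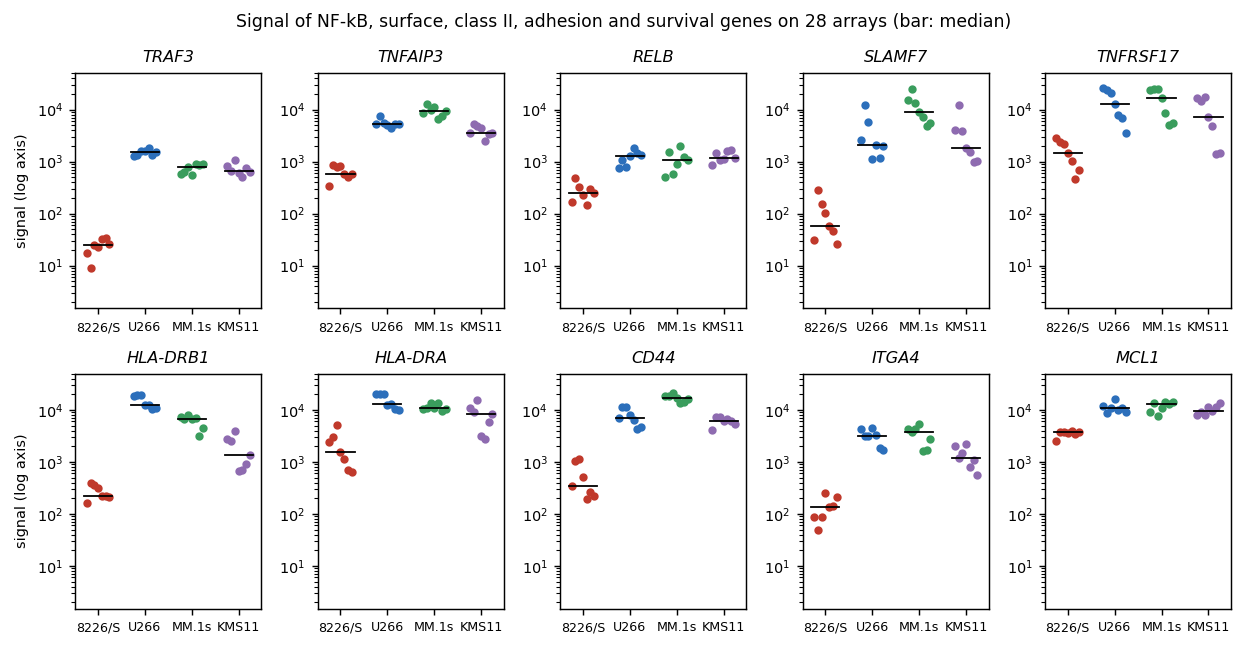
Signal (log axis, no unit) of 10 genes of the NF-kB pathway, the plasma cell surface, HLA class II, adhesion and survival, 1 point per array in the order Control 1, DAR 6 and 24 h, Control 2, ATO 6, 24 and 48 h, with the median of 7 arrays as a bar. The 8226/S median is the lowest of the 4 lines in each panel, and TRAF3 lies between 9.08 and 34.0 in 8226/S.

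The master regulators of the plasma cell state were not called. PRDM1, which encodes BLIMP-1, had 1474, 1671 and 2509 on the 8226/S arrays, against 2527, 4282 and 9829 on the others, so every 8226/S array lay below every other, but the nearest line was -0.91 ± 0.10 away and short of the 1 log2 unit required. XBP1, which drives the secretory apparatus, had 7231 in 8226/S against 9436 in U266, 17271 in MM.1s and 9080.0 in KMS11. The higher members of the list were the stem cell factor receptor gene KIT (2.42 ± 0.35) and the neural adhesion gene NCAM1. KIT would not have passed the filter on low signals without the 8226/S arrays. Summed over 9 plasma cell markers the signal was 29672 to 46009 in 8226/S against 31306 to 88863 in U266, 52364 to 125156 in MM.1s and 27368 to 80005 in KMS11. None of the 9 was at 0 on any array, and 2 of them were lower. None of 11 immunoglobulin genes tested was called, against 3.52% higher and 2.96% lower of all genes.

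Of 12 HLA class II genes tested, which present antigen to helper T cells, 5 were lower and none higher, against 2.96% and 3.52% of all genes. Their median difference from the mean of the lines was -1.71, against 0.03 over all genes. HLA-DRB1 had 159.6, 225 and 386 on the 8226/S arrays, against 675, 6827 and 19195 on the others, with no overlap and a difference of -2.42 ± 0.23 (adjusted p = 1.74e-09). HLA-DRA had 635, 1579 and 5217 on the 8226/S arrays, against 2776, 10642 and 20376 on the others and overlapped, with its highest 8226/S value after 24 h of DAR, and its difference was -2.03 ± 0.27. HLA-DPB1 (-1.27 ± 0.18), HLA-DQA1 (-1.39 ± 0.41) and the invariant chain gene CD74 were also called, but none of the other probe sets of HLA-DPB1 or HLA-DQA1 lay on the same side of every line. The calls of HLA-DPB1 and HLA-DQA1 were lost with probe sets averaged. That of HLA-DQA1 was also lost with the larger offset, without the condition term, in the Control 2 and ATO conditions alone and in the untreated conditions alone. HLA-DPA1 missed the size threshold because KMS11 was low too, with 143 in 8226/S against 13583 in U266, 8687 in MM.1s and 172 in KMS11. CIITA, the activator of this gene set, did not differ by more than its SE from any line, with 202 in 8226/S against 177 in U266, 130.2 in MM.1s and 270.4 in KMS11. HLA genes differ in sequence between people, and the part of this in the signals was not tested. Of 15 class I and peptide loading genes none was called, and B2M, the shared light chain, had 31276 in 8226/S against 27692 in U266, 31342 in MM.1s and 32774 in KMS11.

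Of 19 B cell markers 5 were higher and 1 lower, against 3.52% and 2.96% of all genes. Their median difference from the mean of the lines was 0.03, as over all genes. FCER2, the low-affinity IgE receptor CD23, had 193, 342 and 729 on the 8226/S arrays, against 5.35, 12.8 and 77.4 on the others. MS4A1, which encodes CD20, had 365, 766 and 1142 on the 8226/S arrays, against 15.2, 87.3 and 305 on the others, and CD72 had 186, 513 and 1228 on the 8226/S arrays, against 5.82, 21.99 and 177 on the others. These 3 lay above the other lines on every array at low to moderate signals, by 3.06 ± 0.24, 2.19 ± 0.21 and 2.46 ± 0.43. FCER2 and CD72 would not have passed the filter on low signals without the 8226/S arrays. Each could thus be tested only through the line where it is high. CD37 (1.98 ± 0.27) and the kinase gene BLK (1.46) were higher as well, although the 1 other probe set of CD37 did not lie on the same side of every line. CD79B of the B cell receptor was lower, at -1.23.

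Adhesion genes were called in both directions, 3 of 34 higher and 6 lower, against 3.52% and 2.96% of all genes. CD44, the hyaluronan receptor gene, had 197, 350.2 and 1158 on the 8226/S arrays, against 4152, 7425 and 21178 on the others, with a difference of -3.74 ± 0.20 (adjusted p = 4.31e-14). Of its 12 other probe sets 8 lay on the same side of each line. ITGA4, the alpha 4 integrin gene whose product binds VCAM1 on marrow stroma, had 49.3, 137 and 252 on the 8226/S arrays, against 549, 2243 and 5298 on the others, with a difference of -2.999 ± 0.26 and 3 of 3 other probe sets on the same side. ITGA8, ITGB8, ITGA6 and SELPLG were lower too. FN1, the fibronectin gene, had 8751, 16508 and 29583 on the 8226/S arrays, against 8.68, 771 and 3311 on the others, with 6 of 6 other probe sets on the same side of each line. Its differences were 8.14 from U266, 4.87 from MM.1s and 3.37 from KMS11 (SE 0.32).

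Several epithelial genes stood above the other lines. CDH1, the E-cadherin gene, had 263, 1039 and 3994 on the 8226/S arrays, against 3.67, 18.2 and 335 on the others and overlapped, with a difference of 3.61 ± 0.37. It would not have passed the filter on low signals without the 8226/S arrays. EPCAM, an epithelial adhesion molecule gene, had 6542, 7789.8 and 11542 on the 8226/S arrays, against 2.32, 51.8 and 3454 on the others, with KMS11 next, at a median of 2380.0. KRT18, a keratin of simple epithelia, had 4866, 6779 and 19039 on the 8226/S arrays, against 12.8, 82.5 and 757 on the others. The highest KRT18 value was that after 6 h of DAR. KRT15, a keratin of basal epithelium, differed by 4.83 ± 0.24, and it too would not have passed that filter without the 8226/S arrays. Of the 10 stromal, endothelial and epithelial markers tested 3 were higher (KRT18, EPCAM and VWF), against 3.52% of all genes, and none lower. VWF would not have passed the filter on low signals without the 8226/S arrays. Its call was lost with the larger offset and with probe sets averaged.

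The sum over 4 epithelial markers (EPCAM, KRT8, KRT18 and KRT19) was 11764 to 29451 in 8226/S. It was 243 to 841 in U266, 156 to 384 in MM.1s and 2427 to 4336 in KMS11. Most of the 8226/S sum came from EPCAM and KRT18, the 2 that were called, so it adds little to their values. KRT19 did not pass the filter on low signals and was not tested. None of the 4 markers was at 0 on any array, and the part of epithelial cells in these results was not tested. The keratin partner of KRT18 was not called, with KRT8 at 314 in 8226/S against 310.5 in U266, 168 in MM.1s and 167 in KMS11. Named after their values were seen, the desmosome gene DSP (6911, 8599 and 10453 on the 8226/S arrays, against 3.57, 573 and 1157 on the others), CDH3 (3.88 ± 0.28), KRT16 (4.26 ± 0.28) and CLDN7 (1.86 ± 0.33) were higher too. CDH3, KRT16 and CLDN7 would not have passed the filter on low signals without the 8226/S arrays. ZEB1, a repressor of epithelial genes, was at 548 in 8226/S against 718 in U266, 1054 in MM.1s and 997 in KMS11 and was not called. Whether all cells of the culture or some of them carry these transcripts cannot be told from bulk RNA, where fewer cells of a type and less RNA per cell look alike.

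Of 14 chemokine and receptor genes 3 were higher and 1 lower, against 3.52% and 2.96% of all genes. CXCL8, which encodes interleukin 8, had 378 in Control 1, 20504 and 5420.1 after 6 and 24 h of DAR, 323 in Control 2, and 931, 523 and 535 after 6, 24 and 48 h of ATO on the 8226/S arrays. The other lines ranged from 3.32 to 224, so the groups did not overlap, but the size of the difference (3.54 ± 0.61) includes the high DAR arrays. CXCL12, the marrow chemokine gene, had 809, 1082 and 2035 on the 8226/S arrays, against 21.2, 223 and 340.2 on the others. CCR10, a receptor of mucosal plasma cells, had 9.20, 134 and 163 on the 8226/S arrays, against 305, 1182 and 3141 on the others. Of 34 cytokine, growth factor and receptor genes none was called. IL6R, the interleukin 6 receptor gene, was at 1784 in 8226/S against 8439.7 in U266, 8577 in MM.1s and 828 in KMS11, so 8226/S lay between KMS11 and the other pair.

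Genes that handle oxidants, glutathione and arsenic bear on the drugs of the study, and 5 of 38 were higher and 3 lower, against 3.52% and 2.96% of all genes. The median difference from the mean of the lines was 0.18 in the list and 0.03 over all genes. The higher were the aldo-keto reductase genes AKR1C1, AKR1C2 and AKR1C3, the membrane glutathione transferase gene MGST1 and TKT of the pentose phosphate pathway. The lower were the glutathione transferase gene GSTP1, the channel gene AQP3 and MGST3. The promoters of the AKR1C genes and GSTP1 are shown because AKR1C2 and GSTP1 differ most in each direction, the AKR1C genes are neighbours, and their upstream sequences differ in kind. Each is the 250 bases before the transcription start from RefSeq (GRCh38.p14), 5′ to 3′ on the gene's strand, with every CpG dinucleotide in capitals.
AKR1C1 (chr10:4963165-4963414, plus strand): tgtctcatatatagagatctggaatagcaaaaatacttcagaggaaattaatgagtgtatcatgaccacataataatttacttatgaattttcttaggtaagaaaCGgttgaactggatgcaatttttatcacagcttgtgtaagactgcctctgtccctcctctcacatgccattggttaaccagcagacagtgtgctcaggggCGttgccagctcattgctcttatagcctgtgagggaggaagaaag
AKR1C2 (chr10:5003858-5004107, minus strand): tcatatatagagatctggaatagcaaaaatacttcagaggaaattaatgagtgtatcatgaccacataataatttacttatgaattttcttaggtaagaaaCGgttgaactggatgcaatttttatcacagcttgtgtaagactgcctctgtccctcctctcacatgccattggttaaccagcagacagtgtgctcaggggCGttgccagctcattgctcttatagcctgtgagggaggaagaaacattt
AKR1C3 (chr10:5048531-5048780, plus strand): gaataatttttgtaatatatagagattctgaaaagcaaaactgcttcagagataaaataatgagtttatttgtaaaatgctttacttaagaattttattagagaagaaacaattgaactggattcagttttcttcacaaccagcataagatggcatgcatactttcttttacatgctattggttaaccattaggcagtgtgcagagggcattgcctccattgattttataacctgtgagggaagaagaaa
GSTP1 (chr11:67583562-67583811, plus strand): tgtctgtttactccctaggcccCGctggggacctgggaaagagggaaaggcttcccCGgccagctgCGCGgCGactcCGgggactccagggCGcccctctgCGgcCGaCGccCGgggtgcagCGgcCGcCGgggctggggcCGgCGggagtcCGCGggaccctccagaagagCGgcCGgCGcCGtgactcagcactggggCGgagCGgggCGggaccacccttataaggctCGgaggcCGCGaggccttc

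The GSTP1 window holds 28 CpG, while those of AKR1C1, AKR1C2 and AKR1C3 hold 2, 2 and 0. The core of the element bound by the oxidant-response factor NRF2, written TGACNNNGC and searched on both strands, is found 1 time before GSTP1, at -66 from the start, and not in the other 3 windows. That motif occurs in 12.1% of the upstream windows of all genes tested. DNA methylation was not measured here.

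GSTP1 signals were 102, 283 and 469 on the 8226/S arrays, against 5989, 9697 and 15063 on the others. On the 8226/S arrays they were 154 in Control 1, 162 and 102 after 6 and 24 h of DAR, 469 in Control 2, and 291, 283 and 295 after 6, 24 and 48 h of ATO. Medians were 283 in 8226/S against 8224 in U266, 10407 in MM.1s and 9697 in KMS11, and the groups were far apart, with a difference of -5.01 ± 0.17, 32.3-fold lower (adjusted p = 2.9e-18). AQP3, a channel for water and glycerol that also passes trivalent arsenic, had 155, 196 and 308 on the 8226/S arrays, against 989, 6958 and 11426 on the others, a difference of -4.06 ± 0.28 (adjusted p = 2.01e-12). MGST3 had 753, 842 and 896 on the 8226/S arrays, against 1327, 2925 and 4951 on the others, and its call was lost with probe sets averaged. In the opposite direction MGST1 had 13468, 16762 and 20796 on the 8226/S arrays, against 52.9, 2089 and 7399.5 on the others, with 4 of 4 other probe sets on the same side of each line. The TKT call was lost in the untreated conditions alone.

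AKR1C1 was at 4722 in Control 1, 7507 and 11194 after 6 and 24 h of DAR, 1069 in Control 2, and 9135, 12904 and 13524 after 6, 24 and 48 h of ATO on the 8226/S arrays. AKR1C2 was at 4311 in Control 1, 7012 and 12148 after 6 and 24 h of DAR, 920.2 in Control 2, and 9645, 16546 and 15264 after 6, 24 and 48 h of ATO. In both, the untreated array Control 2 was the lowest of the 7 and Control 1 was several times higher. The 21 other arrays ranged from 20.6 to 2326 for AKR1C1 and from 11.9 to 1405 for AKR1C2, which overlap the lowest 8226/S value. Differences were 3.99 ± 0.49 and 4.70 ± 0.44 (adjusted p = 1.26e-07 and 1e-09). AKR1C3 differed by 1.78 ± 0.43, with MM.1s the nearest line. The AKR1C genes are close paralogs whose probe sets may read one another. HMOX1 and NQO1, targets of NRF2 that respond to arsenic, were not called.

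Among 9 metallothionein and zinc genes, whose products bind metal, MT1H alone was called higher, against 3.52% of all genes (adjusted p = 0.0223). On the 8226/S arrays it was 279 in Control 1, 325 and 120.3 after 6 and 24 h of DAR, 1140.4 in Control 2, and 21932, 15005 and 9657 after 6, 24 and 48 h of ATO. Over the groups it had 120.3, 1140.4 and 21932 on the 8226/S arrays, against 28.03, 89.3 and 25098 on the others, so the groups overlapped. The call was lost when any of Control 1, DAR 6 h, DAR 24 h or Control 2 was left out. It was also lost with the larger offset, without the condition term and in the Control 2 and ATO conditions alone. Of 7 drug efflux transporter genes 2 were higher and 1 lower, against 3.52% and 2.96% of all genes. ABCG2, the breast cancer resistance protein gene, had 2358, 2854 and 4741 on the 8226/S arrays, against 60.7, 227 and 573 on the others, with a difference of 2.89 ± 0.24 (adjusted p = 1.65e-10) and no overlap. ABCC4 (1.24 ± 0.17) was higher and ABCA1 (-1.08 ± 0.25) lower. The ABCA1 call was lost without ATO 6 h, with the larger offset and in the Control 1 and DAR conditions alone. Both calls were lost with probe sets averaged and in the untreated conditions alone.

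MCL1, which encodes the BCL2 relative on which many myelomas depend, had 2513, 3677 and 4003 on the 8226/S arrays, against 7663, 11021 and 15894 on the others, the only call among 14 BCL2 family genes tested, against 2.96% of all genes lower, at -1.49 ± 0.13 (adjusted p = 4.24e-10), with 5 of 5 other probe sets on the same side. When the probe sets of a gene were averaged the call was lost. BCL2 was at 1071 in 8226/S against 3160.0 in U266, 1997 in MM.1s and 1137 in KMS11 and BCL2L1 at 1616 in 8226/S against 1689 in U266, 2597 in MM.1s and 1453 in KMS11. FAS, a death receptor gene, was the only call of 17 in its list (-1.25 ± 0.23), against 2.96% of all genes lower. The FAS call was lost without DAR 6 h, in the Control 2 and ATO conditions alone and in the untreated conditions alone. Of 19 p53 pathway genes 2 were lower, FAS and TP53INP1 (-2.47 ± 0.17), and 1 was higher, PLK3 (1.34 ± 0.28), against 2.96% and 3.52% of all genes. The PLK3 call was lost with probe sets averaged, in the Control 1 and DAR conditions alone and in the untreated conditions alone. CDKN1A stood at 900.0 in 8226/S against 1509.8 in U266, 2635 in MM.1s and 579 in KMS11 and MDM2, which restrains p53, at 881 in 8226/S against 1216 in U266, 4628 in MM.1s and 1300.4 in KMS11, the highest value in both lying in MM.1s.

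Of 22 WNT and Notch genes 3 were higher and 5 lower, against 3.52% and 2.96% of all genes. LEF1, a transcription factor gene of WNT signalling, had 52.7, 129.7 and 207 on the 8226/S arrays, against 1495, 2244 and 3715 on the others, with a difference of -3.85 ± 0.20. Its relative TCF7L2 lay on the other side, with 365, 427 and 788 on the 8226/S arrays, against 12.0, 97.3 and 210.1 on the others. FZD6 (-2.92 ± 0.20), WNT5B (-2.75 ± 0.18), ROR2 (-1.58) and WNT10A (-1.34) were lower, and JAG2 (1.36) and ROR1 (1.32) higher. Of 13 genes of RAS and MAP kinase feedback 2 were higher, against 3.52% of all genes, FOSL1 (2.01 ± 0.26) and ETV4 (1.66 ± 0.37). The FOSL1 call was lost in the untreated conditions alone, and FOSL1 would not have passed the filter on low signals without the 8226/S arrays.

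Replication genes had 2 of 15 higher, MCM7 (6860.2, 8765 and 14449 on the 8226/S arrays, against 910.1, 2251 and 5628 on the others) and GINS1 (1.09 ± 0.23), against 3.52% of all genes. The list's median difference from the mean of the lines was 0.82, against 0.03 over all genes. The GINS1 call was lost in the Control 1 and DAR conditions alone and in the untreated conditions alone. None of 15 mitosis genes was called, and MKI67 was at 1181 in 8226/S against 1659 in U266, 2816 in MM.1s and 5068 in KMS11. IFITM1 was the 1 call of 30 interferon genes (1.11 ± 0.30), against 3.52% of all genes higher. The IFITM1 call was lost without DAR 24 h or ATO 48 h and with the larger offset. It was also lost in the Control 2 and ATO conditions alone and in the untreated conditions alone. SEL1L was the 1 call of 19 ER chaperone genes (-1.06 ± 0.17), against 2.96% of all genes lower. The SEL1L call was lost with probe sets averaged and in the Control 2 and ATO conditions alone. No call was made among 15 CDK and CDK inhibitor genes or 15 HOX genes and partners.

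**Figure D3:**
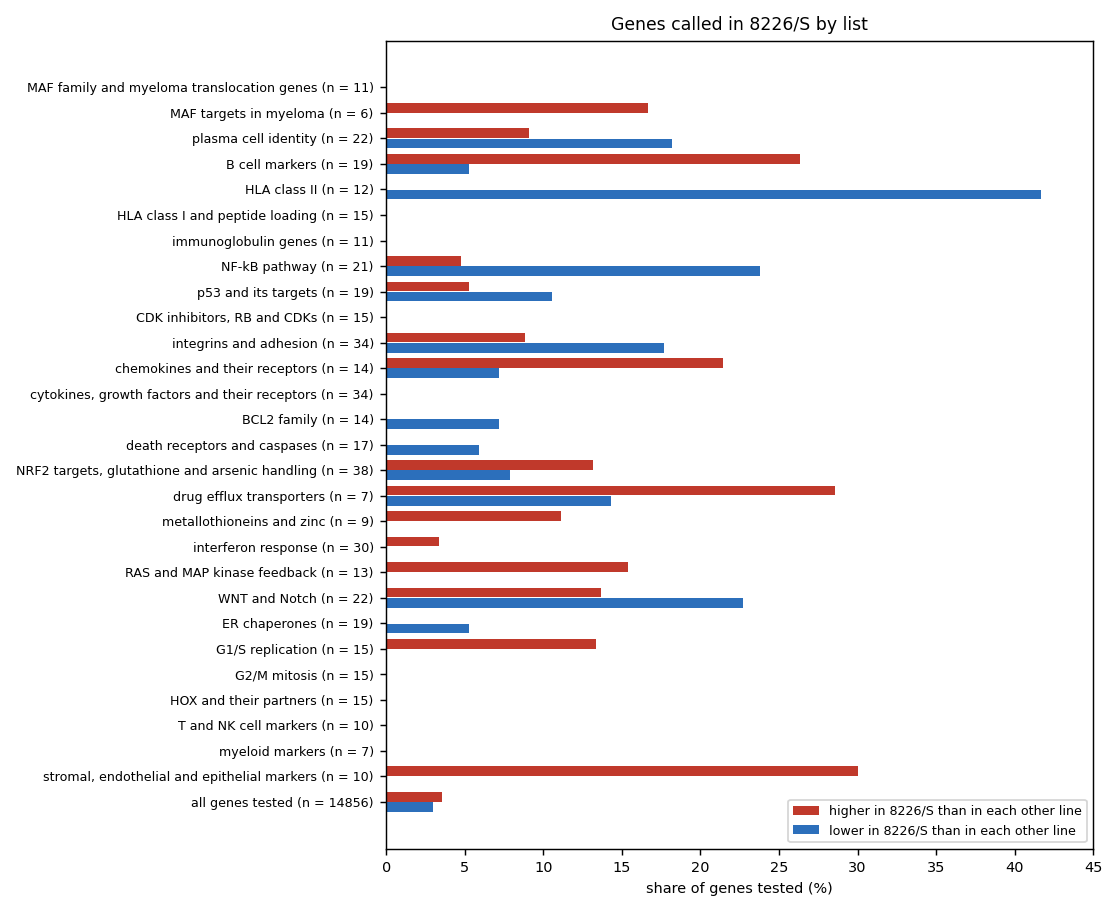
Share of the genes tested in each of 28 lists (n beside the name) that were higher (red) or lower (blue) in 8226/S than in each other line, in percent, with all genes tested as the last row. HLA class II has 41.7% lower and the NF-kB pathway 23.8% lower, against 2.96% over all genes.

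The program was read in 2 sets of arrays, the controls numbered 1 with the DAR arrays and the controls numbered 2 with the ATO arrays. Genes chosen in one set could then be read in the other. Of 565 genes called higher with the first set 357 (63.2%) were also called with the second, and of the 508 called with the second these were 70.3%. For lower genes 286 were called in both, 63.8% of 448 and 61.6% of 464. In 93.3% to 97.1% of the chosen genes 8226/S lay on the same side of every line in the other set. The filter and the probe set of each gene came from all 28 arrays, and both sets hold the same 4 lines. Agreement between the sets is therefore no independent replication, and the same shares over all genes are not given here. By the sign of the difference from the mean of the lines, 1 of the 963 genes called over all conditions lay on opposite sides in the 2 sets. It was TUNAR, singled out after its values were seen, which differed by -0.27 in the first set and 2.96 in the second. The 963 were called with both sets together, so their agreement in sign follows largely from the choice and is no separate test.

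**Figure D4:**
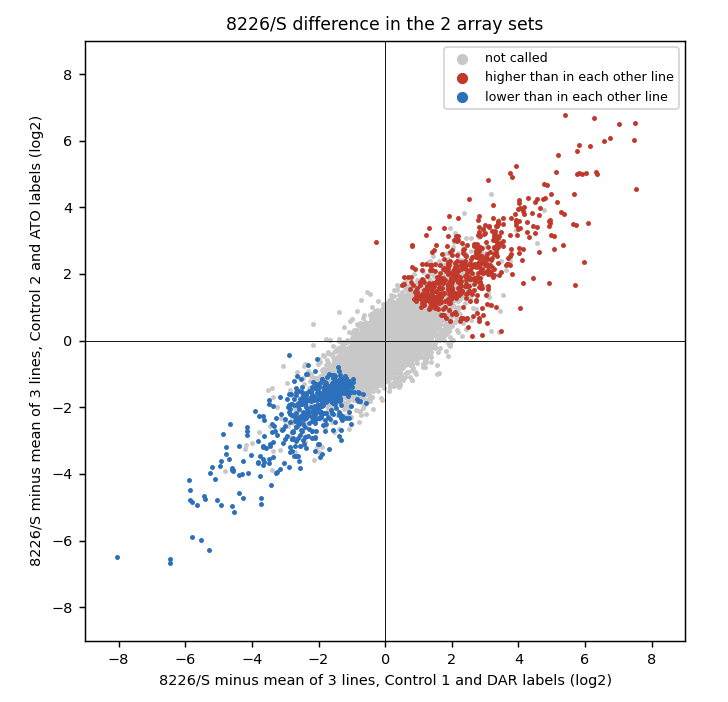
Each point is 1 of 14856 genes, placed by the mean difference of 8226/S from the mean of the 3 lines (log2) in the Control 1 and DAR conditions (x) and in the Control 2 and ATO conditions (y), red where higher and blue where lower than each other line. Of the 963 coloured genes all but TUNAR lie on the same side of 0 in both sets, which follows largely from calling them with both sets together.

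No change of the line difference with arsenic was called. With limma on the 7 differences between 8226/S and the mean of the lines, 0 genes shifted between the 5 treated and the 2 untreated conditions at an adjusted p under 0.05, and 792 (5.33%) at an unadjusted p under 0.05. Among the 523 higher genes the median difference from the mean of the lines was 2.37 and 2.15 in the 2 controls, 2.43 and 2.45 after 6 and 24 h of DAR, and 2.02, 2.09 and 2.03 after 6, 24 and 48 h of ATO. Among the 440 lower genes it was -2.21 and -1.95 in the controls, -2.12 and -2.01 after DAR, and -1.92, -2.04 and -2.01 after ATO. The 4 residual degrees of freedom of this test limit its precision.

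Several neighbours on a chromosome were called together. Taking tested genes in their order along each chromosome, 13 runs of at least 3 consecutive genes had the same call, 10 higher and 3 lower, holding 43 genes. On chromosome 1 the run CD48, SLAMF7, LY9 and ARHGAP30 was lower. CD48, a surface protein of the SLAM family, had 339, 379 and 841 on the 8226/S arrays, against 1634, 7531 and 16859 on the others, and ARHGAP30 had 64.1, 147 and 174 on the 8226/S arrays, against 3082, 4711 and 6491 on the others. No array of the 4 genes overlapped between 8226/S and the others, and the differences were -3.38 ± 0.21, -4.55 ± 0.23, -3.70 ± 0.18 and -4.60 ± 0.11. Of the 2 other probe sets of ARHGAP30 only 1 lay on the same side of every line. A lower run on chromosome 10 held NMT2, FAM171A1, ITGA8 and MINDY3.

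Among the higher runs were AKR1C1, AKR1C2 and AKR1C3 on chromosome 10, CDH3, CDH1 and TANGO6 on chromosome 16, MS4A6A, MS4A4A and MS4A1 on chromosome 11, and OSBPL10, GPD1L, CMTM8 and CMTM7 on chromosome 3. The MS4A run did not hold without DAR 6 h, where the MS4A6A call was lost. The calls of MS4A6A and MS4A4A were also lost with the larger offset, in the Control 2 and ATO conditions alone and in the untreated conditions alone. The AKR1C run sits on a chromosome where lower genes were otherwise the more frequent. By chromosome the share of higher genes ran up to 8.62% on chromosome 18 (20 of 232), followed by 5.74% on chromosome 9 (36 of 627) and 5.61% on chromosome 16 (38 of 677), and lower genes made up 6.84% of chromosome 4 (39 of 570) and 5.86% of chromosome 10 (36 of 614). On chromosome 16 lower genes were 0.739%, and the median difference from the mean of the lines over all its tested genes was 0.25, against -0.27 on chromosome 4 and 0.03 over all autosomes. DNA copy number was not measured here.

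**Figure D5:**
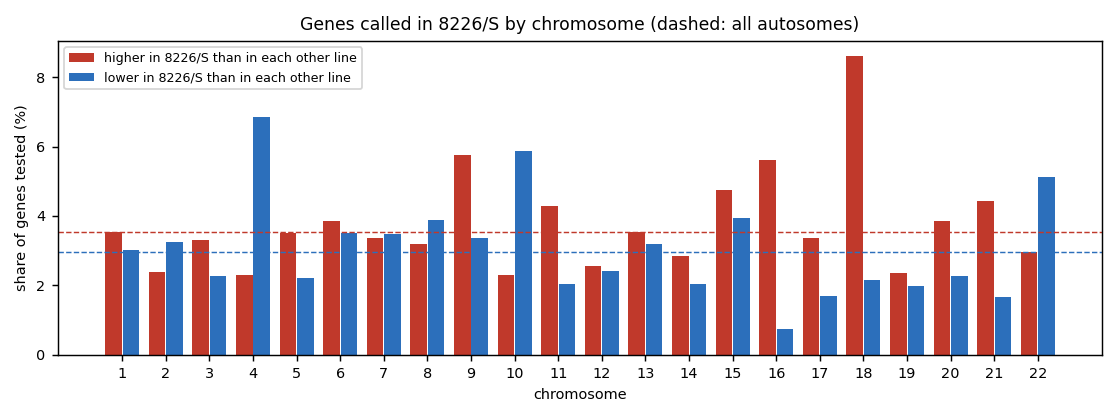
Share of the tested genes of each autosome (percent) that were higher (red) or lower (blue) in 8226/S than in each other line, with the shares over all autosomes as dashed lines at 3.52% and 2.96%. Chromosome 18 has the highest red bar at 8.62% and chromosome 4 the highest blue bar at 6.84%.

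The upstream sequences of the called genes were set beside those of all genes tested. Of the 523 higher genes 399 had a promoter in the RefSeq table, as did 347 of the 440 lower and 11794 of the 14856 tested. The median number of CpG in the 250 bases was 21 in higher genes, 21 in lower genes and 20 in all genes tested, with quartiles of 8 and 29, 12 and 28, and 11 and 27. The half-site bound by MAF, TGCTGA on either strand, was found in 11.3% of higher, 12.1% of lower and 10.9% of all tested genes. It was in the window of MAF itself and not in those of CX3CR1, ITGB7, CCR1 or NUAK1.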

How the data were processed

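RNA of 28 samples was measured on 1-colour Affymetrix HG-U133 Plus 2.0 arrays, 7 of 8226/S and 21 of the other lines. The deposited values are intensity values made with GCOS, per the submitters' processing notes, and each array's trimmed mean lies near 500. They hold no detection calls, and precision is limited by how many arrays there are. Of 54675 probe sets, 41097 had 1 gene symbol, 1801 several and 11777 none in the platform annotation, and only those with 1 symbol were named. Chromosomes came from RefSeq, and 18991 autosomal genes remained. Values were taken as log2(value + 29), and a gene was read from the probe set with the highest mean. The 14856 genes above the array median on at least 4 of 28 arrays were tested, and 4135 were not.

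limma 3.58.1 in R 4.3.3 was fitted with a term for line and a term for condition (18 residual degrees of freedom), with Benjamini-Hochberg adjustment over all genes tested. The condition term pairs the arrays, since the labels give each line the same 7 conditions. The shift with treatment was tested on the 7 differences per gene, with a term for the array set. The text names the MAF lists in full, the 15 genes furthest from the nearest line in each direction, up to 4 called and 2 defining members of each other list (28 lists in all), and a few genes marked as chosen after their values were seen. The members and lists were chosen with earlier results of these data known. The code was tested on simulated data. Alternatives covered the offset, normalization, filter, probe sets, conditions, lines and condition term.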

Additional observations from a re-analysis of the deposited data

Results flagged for a closer look

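Among 126 groups of 7 8226/S arrays, 1 for each named gene, 11 held 1 array whose gap to the rest passed Dixon's critical value. Chance flags about 5% of groups of replicates, but these 7 arrays differ in treatment and time, and all groups share them. The 11 flags can therefore not be set against that share. CCDC69 was at 106 in Control 2, and the rest of the 8226/S arrays lay between 4.47 and 31.4. CCND1 had 169 in ATO 6 h against 298 to 433 on the other 8226/S arrays. CD83 stood at 3120.0 in DAR 6 h, where the other 6 ranged between 1184 and 1784. MCL1 was at 2513 in Control 1, and the rest of the 8226/S arrays lay between 3494 and 4003. AKR1C1 had 1069 in Control 2 against 4722 to 13524 on the other 8226/S arrays. ABCA1 stood at 10.9 in Control 1, where the other 6 ranged between 63.8 and 129.95. FZD6 was at 6.29 in DAR 6 h, and the rest of the 8226/S arrays lay between 59.4 and 121. KRT18 had 19039 in DAR 6 h against 4866 to 8528 on the other 8226/S arrays. CD48 stood at 841 in Control 2, where the other 6 ranged between 339 and 419. CDH3 was at 183 in ATO 48 h, and the rest of the 8226/S arrays lay between 616 and 1321. AKR1C3 had 960.4 in Control 2 against 5925 to 10877 on the other 8226/S arrays. Control 2 was the array apart for CCDC69, AKR1C1, CD48 and AKR1C3, and DAR 6 h for CD83, FZD6 and KRT18. The cause was not tested.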

How the results depend on the processing

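The counts of genes higher (523) and lower (440) stayed within 1.5 times under an offset of 1, quantile normalization, median centring, no filter and each array set alone. The larger offset tried left 259 lower genes. Averaging the probe sets of a gene gave 456 higher and 295 lower genes. Of 576 other probe sets of the higher genes 82.8% lay on the same side of every line. For the lower genes it was 73.1% of 687. Requiring a gene above the median on at least 14 of 28 arrays left 340 higher genes. Without U266 there were 701 lower genes and without KMS11 679. With no minimum difference 1567 were higher and 1458 lower. With the 2 untreated conditions alone, 4696 genes differed from the mean of the lines, 5298 from U266, 4143 from MM.1s and 3822 from KMS11, on fewer arrays. There MAF differed from KMS11 by 0.93 (limma, adjusted p = 0.217). Averaging the probe sets of a gene turned the MAF difference from MM.1s to 0.21 (limma, adjusted p = 0.423), and neither value was called. The cause of these changes was not tested.

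Leaving out 1 condition at a time gave 511 to 539 higher and 435 to 459 lower genes. Of 90 named genes that were called, 1 to 3 then lost the call in 6 of the 7 fits (MT1H, FAS, MS4A6A, IFITM1 or ABCA1), and none without ATO 24 h. Without the condition as a block, which pairs the arrays, 506 genes were higher and 433 lower, and 5741 differed from the mean of the lines. Of the 90, 3 lost the call without the block (HLA-DQA1, MT1H and AKR1C3), 7 with the larger offset, 10 with probe sets averaged, 3 with Control 1 and DAR alone, 7 with Control 2 and ATO alone and 11 with the untreated conditions alone. With the stricter filter 70 of the 90 were tested and kept the call. Dim genes are limited by signal over background.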
